A study of Mus musculus with 4 samples.

Results

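The genes described here are 38 components of the T cell receptor complex and of the signalling steps closest to it, chosen by name. Of these, 37 have a probe set that the platform annotation assigns to them alone, and Lck was not analysed here. A gene was represented by 1 probe set, the one with the highest mean log2 signal over the arrays, and all 37 lay above the floor of 12.1 on all 4 arrays. The floor is the median signal of all probe sets other than controls, and 9210 genes of 18193 lay above it on all 4 arrays. The donors were C57BL/6 mice aged 8 to 10 weeks, whose spleen and lymph node CD4 T cells were cultured, then sorted by Foxp3 (APC) and by an IL-17 reporter read as GFP. Th0 and Th17 cells both started from naive CD4 T cells, were cultured under Th0 or Th17 conditions, and were sorted as Foxp3-; Th0 cells were IL-17- and Th17 cells IL-17+. Foxp3+ CD4 T cells gave exFoxp3Th17 cells (Th17 conditions, sorted as IL-17+ and Foxp3-) and Treg cells (culture with IL-2, sorted as IL-17- and Foxp3+). Culture condition, sort gate and origin therefore cannot be told apart beyond what each pair of arrays shares. How many mice stand behind a sample is not stated in the labels. Each population is 1 array, so every difference below is between 2 arrays, has no replicate check and carries no test.

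T cells recognise antigen through a receptor whose variable chains are carried by the CD3 chains and the zeta chain, which hold the tyrosines that signal. The kinase Lck, brought in by CD4, phosphorylates these tyrosines, Zap70 docks on them, and Zap70 in turn phosphorylates the adaptors Lat and Lcp2 (SLP-76). On these adaptors phospholipase C gamma, Vav1 and Tec family kinases assemble, which opens the calcium-NFAT, diacylglycerol-Ras and NF-kB branches. Phosphatases, the kinase Csk, Cbl ubiquitin ligases and diacylglycerol kinases hold the same steps back.

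The arrays differed in facts that bear on every member. Foxp3 read 584.9 in Treg and 4.3 to 8.0, below the floor, on the other 3 arrays. Il17a stayed below the floor everywhere, at 7.1 to 9.8, so its signal did not set apart the arrays sorted as IL-17+. Xist, the RNA of the inactive X chromosome, was at 3766 in exFoxp3Th17 and at 7.4 to 10.8 elsewhere, and Y-linked Eif2s3y was at 4.7 there and at 654.5 to 875.8 elsewhere. No member lies on the X or Y chromosome, and the part of this difference in any result was not tested. For RNA integrity, Gapdh gave 3' over 5' ratios from 0.91 to 1.06 and Actb from 1.12 to 1.31. The 6 measured markers that define CD4 T cells were above the floor on all 4 arrays, with summed signals of 8211 in Treg, 9597 in Th17, 10995 in Th0 and 12936 in exFoxp3Th17. Cd3d, Cd3e, Cd3g, Cd4 and Cd5 are in that list and are themselves members. Many markers of other cells lay below the floor on every array, but several, such as Klre1, Gzma, Cd8b1 and Trgv4, were well above it on at least 1 array. Of 6 measured B cell markers none exceeded the floor in Th0 or Th17, 2 did in exFoxp3Th17 and 1 in Treg (Cd79b, 55.6), and the summed signals were 33.95 in Th0 and 31.4 in Th17, with 51.6 in exFoxp3Th17 and 83.7 in Treg. The B cell receptor component Cd79a lay at 0.66 to 2.03. Of 8 myeloid markers 1 or 2 did on each array (sums 94.0, 57.2, 46.5 and 60.6 in that order, with Adgre1 at 32.2 in Th0), and of 5 dendritic cell markers 2 did in Th0 and none elsewhere (48.3, 29.8, 16.4 and 28.2). Of 3 erythroid and platelet markers, Itga2b alone exceeded the floor, on all 4 arrays (list sums 51.9, 30.4, 48.7 and 44.0). Among 5 NK markers (sums 24.9, 176.9, 19.98 and 138.5), Klre1 reached 167.4 in Th17, and Gzma 109.0 and Eomes 21.5 in Treg. Of 4 measured CD8 and gamma delta T cell markers, 2 to 4 exceeded the floor on each array (sums 188.5, 214.3, 211.1 and 97.5), with Cd8a at 11.1 to 14.3, Cd8b1 at 51.7 to 83.5 and Trgv4 at 15.1 in Treg and 102.7 to 122.2 elsewhere. The part of these markers in the results was not tested. In samples of whole populations, fewer cells of a type and less RNA per cell cannot be told apart.

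The receptor genes were expressed on every array, and most differences between arrays were small. In 21 of 37 members the 4 arrays lay within 2-fold of each other, which was 56.8% against 64.1% of all genes above the floor on all 4 arrays. Trat1, the transmembrane adaptor that joins the receptor complex, stood apart with a 41.6-fold range. It was followed by the NF-kB activator Malt1 at 5.01-fold, the phosphatase Ptpn22 at 4.62-fold, the Tec family kinase Txk at 4.56-fold and Themis at 4.07-fold. The Th17 array was the lowest of the 4 for 19 members (51.4%, against 23.3% of all genes), Treg for 14 (37.8%, against 25.6%), and Th0 and exFoxp3Th17 for 2 each (5.41%, against 22.5% and 28.5%). The highest array was Th0 for 16 members and exFoxp3Th17 for another 16, or 43.2% each, against 27.4% and 34% of all genes. Treg was highest for 3 members (8.11%, against 19.9%) and Th17 for 2 (5.41%, against 18.8%).

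**Figure D1:**
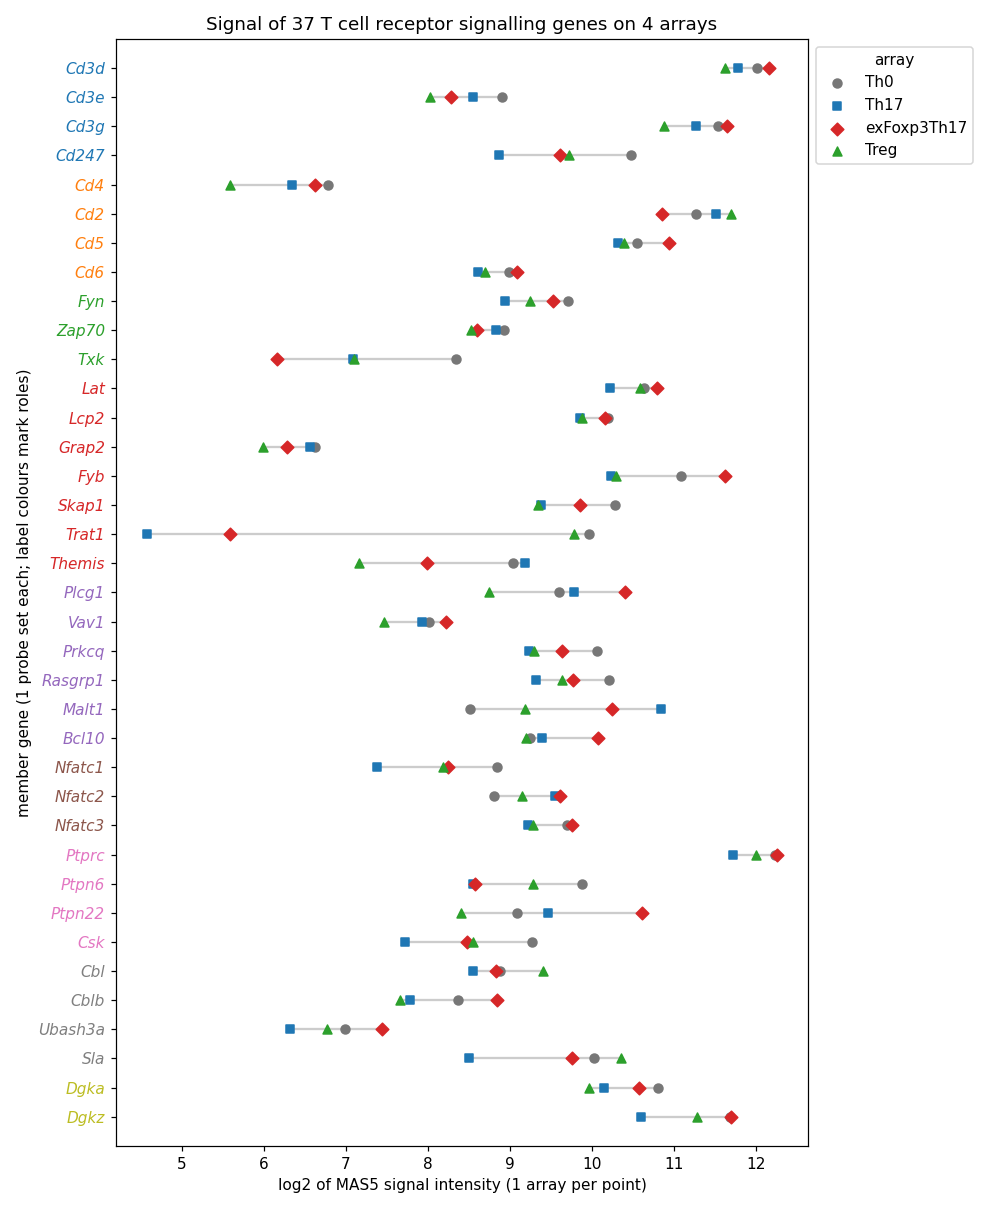
Signal of the 37 members, as log2 of the MAS5 signal on the horizontal axis, with 1 point per array and members grouped by role through the colour of their names. Trat1 shows the widest line, from 23.9 in Th17 to 993.6 in Th0, while most members span less than 2-fold; positions of different genes are of different probe sets and are not to be ranked against each other.

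The CD3 chains, which carry the receptor to the surface and signal for it, varied little between arrays. Cd3d had signals of 4127 in Th0 and 3492 in Th17, with 4536 in exFoxp3Th17 and 3133 in Treg. Cd3g was at 2962, 2458, 3207 and 1871, and Cd3e at 478.7, 374.7, 310.8 and 260.7 in the same order of arrays. Treg was thus the lowest array for each CD3 chain, by 1.32-fold (Cd3d), 1.58-fold (Cd3g) and 1.84-fold (Cd3e) against Th0. None of these 3 chains differed by 2-fold in any of the 4 comparisons. The zeta chain gene Cd247 varied more, at 1415 in Th0 and 466.8 in Th17, with 782.0 in exFoxp3Th17 and 841.6 in Treg, putting Th17 3.03-fold below Th0. Its next brightest probe set gave 362.8, 187.0, 260.8 and 283.7, which is lower in Th17 by under 2-fold, and with the mean of its probe sets the log2 ratio was -0.71.

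Among the coreceptor and accessory receptors, the probe set of Cd4 read 109.6 in Th0 and 81.2 in Th17, with 98.1 in exFoxp3Th17 and 48.3 in Treg. That put Treg 2.27-fold below Th0 and exFoxp3Th17 2.03-fold above Treg. The second ratio missed 2-fold under 4 alternatives: quantile normalization (log2 0.89), equal medians (0.94), adding the floor to each signal (0.87) and averaging the probe sets (0.60). The first missed it when probe sets were averaged (-0.83). The adhesion receptor Cd2 ran the other way, with 1839 in exFoxp3Th17 as its lowest value, 2451 in Th0, 2906 in Th17 and 3317 in Treg. Cd5 and Cd6, related receptors that dampen signalling, were highest in exFoxp3Th17 (1954 and 542.9) and lowest in Th17 (1271 and 388.6), each within 2-fold. The kinase Fyn was at 831.4 in Th0 and 490.1 in Th17, with 737.1 in exFoxp3Th17 and 606.3 in Treg. Zap70, the kinase that binds the phosphorylated chains, ran from 367.0 in Treg to 485.4 in Th0, a 1.32-fold range. A second Zap70 probe set gave 35.8 in Th0 and 60.8 in Th17, with 77.9 in exFoxp3Th17 and 8.9 in Treg, which is below the floor, and 1 more gave 195.4 to 259.7. Txk, a kinase that acts on phospholipase C gamma, was at 325.4 in Th0, 136.3 in Th17, 137.6 in Treg and 71.3 in exFoxp3Th17. Th17 was 2.39-fold and Treg 2.37-fold below Th0, and exFoxp3Th17 stood a further 1.91-fold and 1.93-fold below them. Txk has 1 probe set.

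The adaptors held the member with the widest range, Trat1, and the one with the narrowest, Lcp2 (1.27-fold). Trat1 read 993.6 in Th0 and 876.2 in Treg, against 23.9 in Th17 and 48.2 in exFoxp3Th17. Its other probe set had 238.0 and 231.8 against 10.1 and 14.6, where 10.1 is below the floor. The Th17-cultured arrays therefore lay 41.6-fold below Th0 (Th17) and 18.2-fold below Treg (exFoxp3Th17), far from both arrays of the other cultures. Between the 2 low arrays Trat1 differed by 2.02-fold, a call lost under 5 of 8 alternatives at 2-fold. Themis, which tunes receptor signals in developing T cells, was low on both arrays of Foxp3+ origin. Its signals were 524.6 in Th0 and 582.3 in Th17, but 254.5 in exFoxp3Th17 and 142.9 in Treg, and its 3 other probe sets were also lower in both arrays of Foxp3+ origin than in Th0 and Th17. Fyb (ADAP), which couples the receptor to integrins, had its highest signal in exFoxp3Th17, at 3142, then 2170.2 in Th0, 1246 in Treg and 1203 in Th17. The second Fyb probe set gave the same split between high and low arrays, at 2415 and 1626 against 1017 and 1085. Skap1, the partner of Fyb, was at 1239 in Th0 and 666.1 in Th17, with 924.7 in exFoxp3Th17 and 649.8 in Treg. Both other Skap1 probe sets were lower in exFoxp3Th17 than in Treg (149.1 against 188.9 and 53.0 against 84.0), unlike the set used. The central adaptors varied within 2-fold. Lat spanned 1191 to 1766, Lcp2 922.4 to 1171 and Grap2, which bridges those 2, 63.4 to 98.5.

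Promoter sequences of 5 members follow, to show the DNA at the start of 4 genes called in 2 or more comparisons (Trat1, Themis, Fyb and Ptpn22) beside that of Cd3d, which varied within 2-fold. They were chosen after their values were seen, and they are not the 4 widest ranges, since Malt1 and Txk varied more than Fyb. They are RefSeq sequences of build GRCm38.p6, from 250 bases before to 50 bases after the gene's start, in the direction of transcription. Trat1 is at chr16:48772013-48772312 on the minus strand, Themis at chr10:28668110-28668409, Fyb at chr15:6579597-6579896, Ptpn22 at chr3:103859545-103859844 and Cd3d at chr9:44981536-44981835, all 4 of these on the plus strand. For Themis and Ptpn22, which have 2 listed starts, the first is shown. Capitals mark matches on either strand to 7 short motifs of factors known in T cells, none of which overlap here. Ets factors were searched as CGGAAG and Runx factors as TGTGGT. For AP-1 the letters were TGANTCA, and for STAT factors TTCNNNGAA. The TCF family was searched as CTTTGA, the GATA family as TGATAA and E-box proteins as CAGNTG.
Trat1: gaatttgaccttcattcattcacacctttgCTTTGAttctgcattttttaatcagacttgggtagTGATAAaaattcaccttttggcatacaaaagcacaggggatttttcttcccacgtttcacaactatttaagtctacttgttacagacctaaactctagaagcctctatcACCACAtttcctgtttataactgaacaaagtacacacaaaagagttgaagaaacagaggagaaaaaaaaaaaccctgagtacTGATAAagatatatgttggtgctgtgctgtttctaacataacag
Themis: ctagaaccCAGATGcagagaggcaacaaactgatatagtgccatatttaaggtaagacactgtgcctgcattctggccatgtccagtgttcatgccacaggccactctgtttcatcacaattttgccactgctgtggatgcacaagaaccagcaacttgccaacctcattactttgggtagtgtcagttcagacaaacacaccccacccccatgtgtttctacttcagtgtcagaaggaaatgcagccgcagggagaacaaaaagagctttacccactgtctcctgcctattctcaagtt
Fyb: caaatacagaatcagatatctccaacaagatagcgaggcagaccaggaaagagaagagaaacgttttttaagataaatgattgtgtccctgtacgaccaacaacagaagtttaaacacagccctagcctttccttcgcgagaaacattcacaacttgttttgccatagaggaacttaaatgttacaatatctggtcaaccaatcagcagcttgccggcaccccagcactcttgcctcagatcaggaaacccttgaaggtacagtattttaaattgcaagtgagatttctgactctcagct
Ptpn22: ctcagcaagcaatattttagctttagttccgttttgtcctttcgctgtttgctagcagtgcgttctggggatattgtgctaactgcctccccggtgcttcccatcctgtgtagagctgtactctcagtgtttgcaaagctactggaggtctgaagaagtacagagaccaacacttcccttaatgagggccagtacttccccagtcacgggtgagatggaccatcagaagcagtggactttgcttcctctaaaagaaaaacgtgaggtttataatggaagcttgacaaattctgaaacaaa
Cd3d: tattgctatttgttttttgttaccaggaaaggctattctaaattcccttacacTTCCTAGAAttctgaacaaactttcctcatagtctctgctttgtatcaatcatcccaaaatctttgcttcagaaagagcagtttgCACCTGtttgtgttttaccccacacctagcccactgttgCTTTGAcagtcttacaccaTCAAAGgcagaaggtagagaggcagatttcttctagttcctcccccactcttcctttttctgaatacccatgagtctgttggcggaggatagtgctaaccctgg
Trat1 has a TCF match that begins 220 bases before the start, GATA matches 185 bases before and 6 bases after it, and a Runx match 76 bases before it. Themis has an E-box match 242 bases before its start, and Cd3d has a STAT match at 197, an E-box match at 112 and TCF matches at 73 and 54 bases before its own. No match to the 7 motifs lies in the windows of Fyb and Ptpn22. Of 43 promoters listed for 30 members, 10 held the TCF letters (23.3%, against 16.0% of 32851 promoters of the same length) and 4 the GATA letters (9.30% against 9.05%). The E-box letters were in 22 (51.2% against 51.4%), the Ets letters in 5 (11.6% against 16.9%) and the Runx letters in 5 (11.6% against 16.8%). STAT letters were in 3 (6.98% against 8.30%) and AP-1 letters in none, against 7.81% of all promoters. A match describes letters in a window and shows no binding.

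All 6 members of the effector enzymes and the NF-kB branch had ratios above 1 in exFoxp3Th17 against Treg, while in Th17 against Th0 3 were above 1 and 3 below. Prkcq, the kinase PKC theta, was at 1067 in Th0 and at 600.7, 794.6 and 625.5 in Th17, exFoxp3Th17 and Treg. Rasgrp1, the activator of Ras that responds to diacylglycerol, had 1181, 637.3, 871.8 and 789.7 in that order. Both were highest in Th0 and lowest in Th17, within 2-fold. Plcg1, the phospholipase that makes diacylglycerol and the calcium signal, was at 775.3 in Th0 and 879.7 in Th17, with 1355 in exFoxp3Th17 and 429.0 in Treg, so exFoxp3Th17 was 3.16-fold above Treg. Vav1, a guanine nucleotide exchange factor, ran from 177.0 in Treg to 297.9 in exFoxp3Th17. Malt1, the paracaspase of the NF-kB branch, had signals of 366.1 in Th0 and 1836 in Th17, with 1213 in exFoxp3Th17 and 581.7 in Treg. It was the one member called higher in Th17 than in Th0, by 5.01-fold, and both of its other probe sets (168.9 and 271.4 in Th0, 571.7 and 743.9 in Th17) were higher by 2-fold or more. It was also 2.09-fold higher in exFoxp3Th17 than in Treg (log2 1.06, or 0.97 with equal medians); the other 2 probe sets had 470.7 and 560.6 against 134.2 and 241.4. Bcl10, its partner, was at 603.9, 667.2, 1074 and 586.8 in Th0, Th17, exFoxp3Th17 and Treg.

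The NFAT factors, which enter the nucleus when calcineurin removes phosphates from them, showed no common order. Nfatc1 was at 457.7 in Th0 and 165.8 in Th17, with 302.5 in exFoxp3Th17 and 291.4 in Treg, 2.76-fold lower in Th17 than in Th0. None of its 4 other probe sets differed by 2-fold in this comparison. At 132.8 against 83.6, 50.8 against 35.1 and 37.7 against 24.5, 3 of them were lower in Th17 by less than 2-fold, and 1 was higher (29.8 against 23.3). With the mean of its probe sets the log2 ratio was -0.59. Nfatc2 was lowest in Th0 (444.9) and higher in Treg (563.6), Th17 (744.4) and exFoxp3Th17 (778.6). Nfatc3, read by a probe set that may detect related transcripts, had 594.7 in Th17, 622.7 in Treg, 823.9 in Th0 and 866.5 in exFoxp3Th17.

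Of the 4 phosphatase and Csk genes, 3 were lowest in Th17. The CD45 gene Ptprc, whose product activates Lck, lay between 3368 in Th17 and 4863 in exFoxp3Th17, with 4791 in Th0. The other Ptprc probe set was highest in Th0 (249.9), with 121.2 in Th17, 149.6 in exFoxp3Th17 and 122.7 in Treg. Ptpn6 (SHP-1) was at 937.4 in Th0, 621.0 in Treg, 381.9 in exFoxp3Th17 and 373.1 in Th17, and Th17 was 2.51-fold below Th0. Its second probe set put the same pair at 309.5 and 220.0, under 2-fold. Csk, which phosphorylates the inhibitory tyrosine of Lck, had 615.1 in Th0 and 211.1 in Th17, with 357.0 in exFoxp3Th17 and 374.9 in Treg, 2.91-fold lower in Th17 than in Th0. Ptpn22, the phosphatase that acts on Lck and Zap70 with Csk, did not follow that order. It read 1556 in exFoxp3Th17 against 706.1 in Th17, 541.7 in Th0 and 336.7 in Treg, and exFoxp3Th17 exceeded Treg 4.62-fold and Th17 2.20-fold. Neither Csk nor Ptpn22 has another probe set.

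Sla (SLAP), an adaptor that brings Cbl to the receptor chains, was at 1042 in Th0 and 363.0 in Th17, with 859.5 in exFoxp3Th17 and 1305 in Treg. All 3 other Sla probe sets were lower in Th17 than in Th0 by 2-fold or more (31.1, 38.3 and 47.3 against 147.6, 187.9 and 135.4). The ubiquitin ligase Cblb, which restrains T cells that lack costimulation, had 330.6 in Th0 and 220.0 in Th17, with 456.8 in exFoxp3Th17 and 201.4 in Treg. exFoxp3Th17 was above Th17 and Treg by 2.08-fold and 2.27-fold. Another Cblb probe set went the same way (323.8 against 125.8 and 105.0), and 1 more had its highest value in Th0, 338.6, with 228.3 in exFoxp3Th17. The related ligase Cbl was highest in Treg (678.2) and within 2-fold elsewhere (372.8 to 471.8). Ubash3a, a suppressor of receptor signalling, was at 127.5, 79.5, 172.9 and 109.2 in Th0, Th17, exFoxp3Th17 and Treg. Its other probe set had 78.2, 29.7, 60.5 and 54.7 in that order, also lowest in Th17 but highest in Th0. The diacylglycerol kinase Dgkz was at 3274 in Th0 and 3304 in exFoxp3Th17, against 1542 in Th17 and 2471 in Treg. A second Dgkz probe set had 268.0 and 203.1 against 91.0 and 181.3, again with Th17 lowest. Dgka was at 1789, 1129, 1515 and 994.3 in Th0, Th17, exFoxp3Th17 and Treg.

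**Figure D2:**
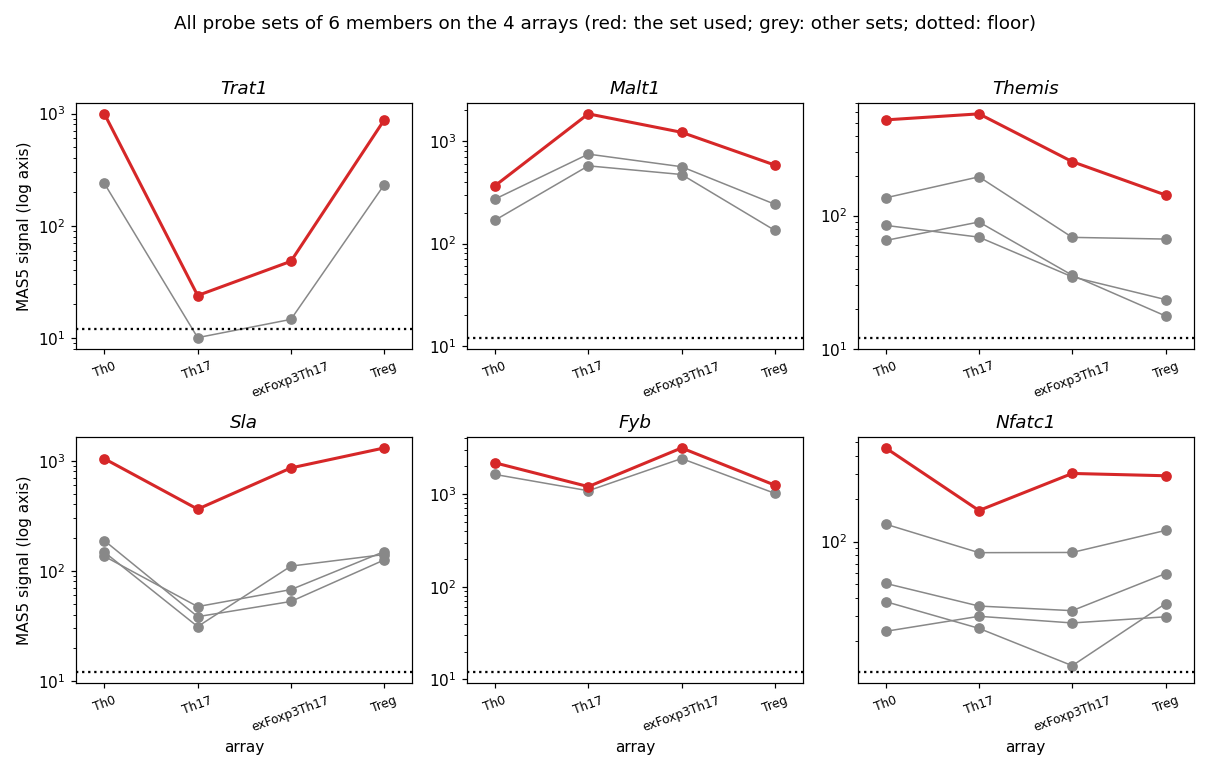
Every probe set of 6 members on the 4 arrays, as MAS5 signal on a log axis; the red line is the set used, grey lines are the gene's other sets, the dotted line is the floor of 12.1, and lines join the points of 1 probe set. Trat1, Themis and Fyb show sets that largely run together. All sets of Malt1 are highest and all sets of Sla lowest in Th17, but their sets disagree on the order of Th0 and Treg. The 4 other sets of Nfatc1 do not show a gap of the size of 457.7 in Th0 against 165.8 in Th17.

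exFoxp3Th17 and Th17 share their culture and gate and differ in the cells they came from. They also differ in Xist (3766 against 7.7) and Y-linked Eif2s3y (4.7 against 875.8), a difference that cannot be told apart from origin here. Members ran higher in exFoxp3Th17: 30 of 37 had a ratio above 1, against 55.6% of all genes above the floor on all 4 arrays, 7 had one below 1 (against 44.4%), and the median log2 ratio was 0.47, against 0.08 for those genes. At 2-fold or more 7 members were higher, or 18.9% against 6.89% of all genes, and 1 was lower, against 7.17%. The higher ones were Fyb (2.61-fold), Sla (2.37-fold), Ptpn22 (2.20-fold), Ubash3a (2.17-fold), Dgkz (2.14-fold), Cblb (2.08-fold; log2 1.05, or 1.00 and under 2-fold with equal medians) and Trat1 (2.02-fold), and the lower one Themis (2.29-fold). All 4 ligases and adaptors that lower receptor signalling had ratios above 1 (median log2 ratio 1.09, 3 of them called). So did all 4 phosphatase and Csk genes (0.64, 1 called, Ptpn6 at 1.02-fold only) and both diacylglycerol kinases (0.76, 1 called). Most other roles ran higher too. All 3 NFAT factors had ratios above 1 (0.54), as did 5 of 6 effector enzymes (0.43). The same held for 5 of 7 adaptors (0.47), 3 of 4 TCR-CD3 genes (0.38) and 3 of 4 coreceptor and accessory genes (0.38). Of the 3 tyrosine kinases only Fyn had a ratio above 1, and the median of the 3 was -0.24. That median is the value of the Zap70 probe set used, while the 2 other Zap70 sets went the other way (0.36 and 0.41). The 12 other probe sets above the floor of the called members all went the same way, 7 of them by 2-fold or more. As a measure of error within the arrays, the difference in log2 ratio between a gene's 2 brightest probe sets had a robust SD of 0.38 over 4360 genes. That figure holds no spread between cultures or animals.

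For cells of naive origin, Th17 against Th0 reads the polarising culture together with the gate. Members ran lower in Th17: 30 of 37 ratios were below 1, against 54.3% of all genes, and 7 above 1, against 45.7%, with a median log2 ratio of -0.43 against -0.06. At 2-fold or more 8 members were lower (21.6%, against 7.13%) and 1, Malt1, was higher (against 7.46%). The lower ones were Trat1 (41.6-fold), Cd247 (3.03-fold), Csk (2.91-fold), Sla (2.87-fold), Nfatc1 (2.76-fold), Ptpn6 (2.51-fold), Txk (2.39-fold) and Dgkz (2.12-fold). They included genes that transmit the signal (Cd247, Txk, Nfatc1) and genes that restrain it (Csk, Sla, Ptpn6, Dgkz). Of the 15 other probe sets of called members 13 went the same way, and 7 by 2-fold or more; the robust SD between probe sets was 0.44 here. The calls of Cd247, Nfatc1 and Ptpn6 were lost with the mean of probe sets (log2 -0.71, -0.59 and -0.91).

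For cells of Foxp3+ origin, exFoxp3Th17 against Treg reads Th17 culture and gate against culture with IL-2 and a Foxp3+ gate. Here too the arrays differ in Xist (3766 against 10.8) and Eif2s3y (4.7 against 654.5). Ratios were above 1 for 29 of 37 members, against 54.5% of all genes, and below 1 for 8, against 45.5%, with a median log2 ratio of 0.39 against 0.08. At 2-fold or more 6 members were higher (16.2%, against 11.1% of all genes) and 1 was lower (against 10%). Ptpn22 (4.62-fold), Plcg1 (3.16-fold), Fyb (2.52-fold), Cblb (2.27-fold), Malt1 (2.09-fold) and Cd4 (2.03-fold) were higher, and Trat1 was lower (18.2-fold). The share called higher is not far from that of all genes. Txk, 1.93-fold lower, was also called lower with quantile normalization and with equal medians. All 7 other probe sets of called members went the same way, 5 of them by 2-fold or more, with a robust SD of 0.40 between probe sets.

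Treg against Th0 set the populations without Th17 culture side by side. Here 32 of 37 members had a ratio below 1, against 54.6% of all genes, and 5 above 1, against 45.4%, with a median log2 ratio of -0.55 against -0.05. At this threshold 3 members were lower by 2-fold or more (8.11%, against 5.14%), Themis (3.67-fold), Txk (2.37-fold) and Cd4 (2.27-fold), and none was higher (against 4.71%). The 5 members above 1 were Malt1, Cbl, Cd2, Nfatc2 and Sla, with Malt1 the highest at a log2 ratio of 0.67. Other probe sets did not all share this direction. Both other Malt1 sets were lower in Treg than in Th0 (134.2 against 168.9 and 241.4 against 271.4). No other Nfatc2 set was higher in Treg, and 1 of 3 other Sla sets was. Each array serves in 2 of the 4 comparisons, so their values are not independent.

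**Figure D3:**
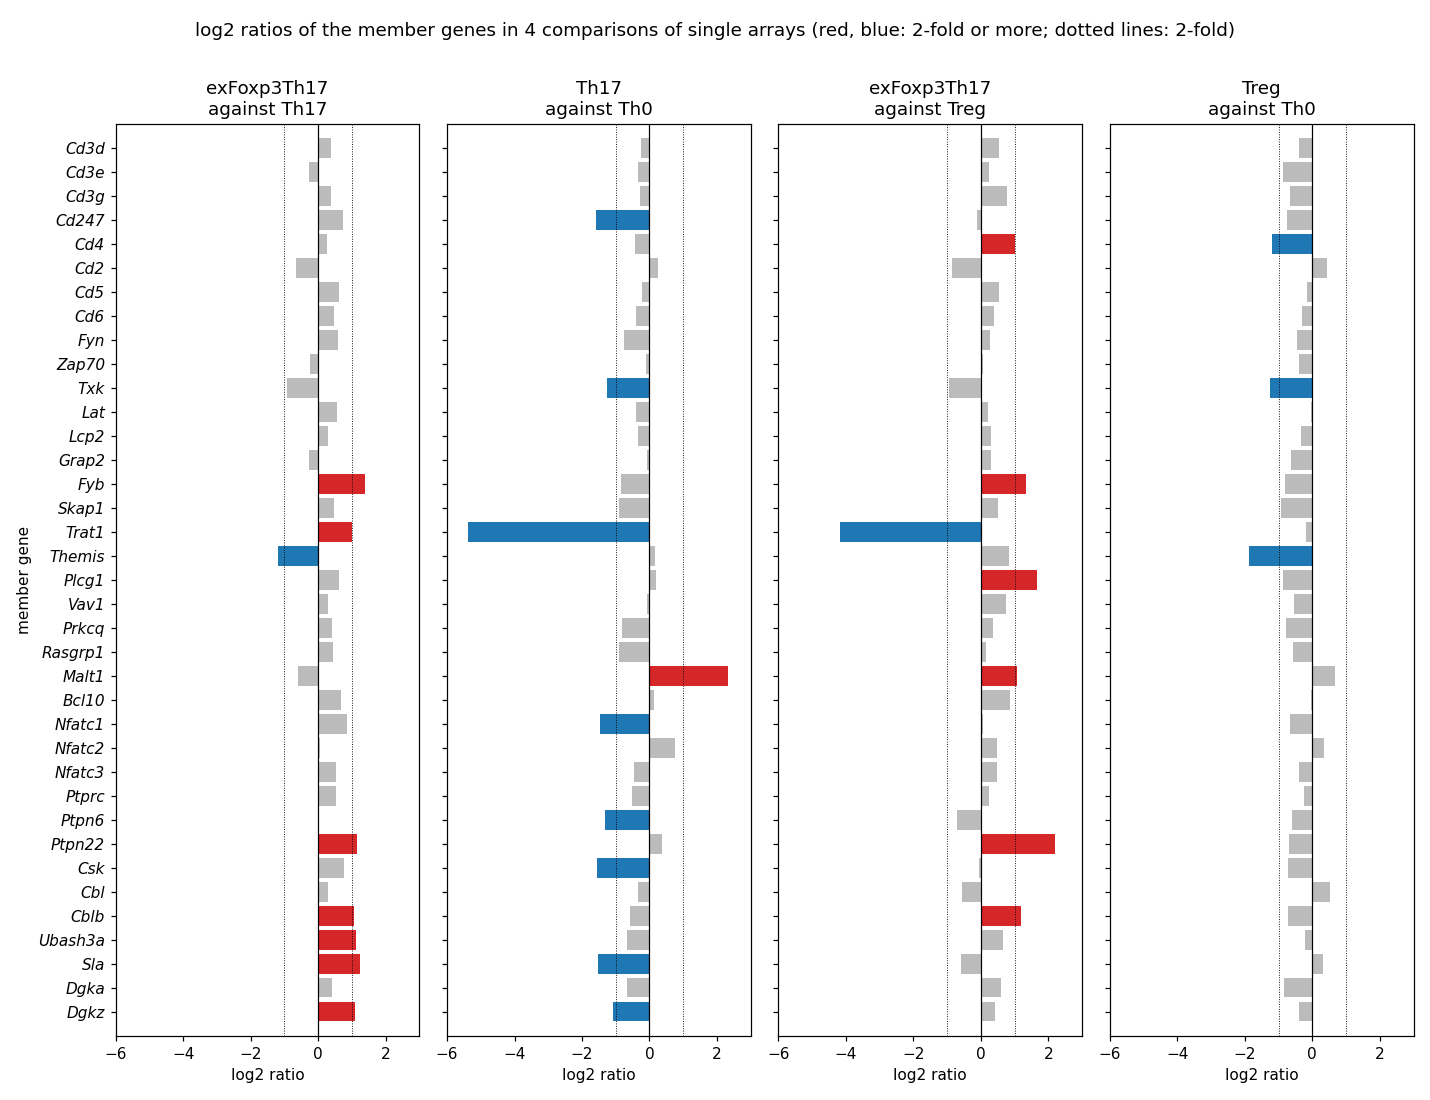
log2 ratios of the 37 members in the 4 comparisons, 1 panel each, with bars in red for members higher and in blue for members lower by 2-fold or more and dotted lines at 2-fold. The bars lean to the right in both panels of exFoxp3Th17 (30 and 29 of 37 above 0) and to the left in Th17 against Th0 and Treg against Th0 (30 and 32 of 37 below 0).

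Th17 against Th0 and exFoxp3Th17 against Treg share no array, so they set Th17 culture and gate against another culture in cells of each origin. The other culture differs between them, Th0 conditions in one and IL-2 in the other. The Foxp3 gate differs as well: Th17 and Th0 were both sorted as Foxp3-, while exFoxp3Th17 was sorted as Foxp3- and Treg as Foxp3+. Foxp3 read 6.2 in Th17 and 4.3 in Th0, but 8.0 in exFoxp3Th17 and 584.9 in Treg. The members' 2 ratios pointed in opposite directions for 24 (64.9%, against 49.1% of all genes above the floor on all 4 arrays). Of these, 23 were lower in Th17 than in Th0 and higher in exFoxp3Th17 than in Treg (62.2% of members, against 29%). The opposite order was seen for 1, Cd2, while 7 members were lower in both and 6 higher in both. The ratio against Treg divided by the ratio against Th0 exceeded 1 for 33 members (89.2%, against 55.1%) and reached 2-fold for 17 (45.9%, against 16.5%). It was lower by 2-fold or more for 2 (against 13.1%), with a median log2 value of 0.92 against 0.11. By construction its log2 value equals the log2 ratio of exFoxp3Th17 against Th17 minus that of Treg against Th0. It therefore restates those comparisons and is no separate evidence. Fyb had the largest such value among the members, 4.55-fold, from ratios of log2 -0.85 in naive-derived and 1.33 in Foxp3-derived cells. Ptpn22 (3.55-fold), Cblb (3.41-fold), Nfatc1 (2.87-fold), Dgkz (2.84-fold), Cd247 (2.82-fold), Plcg1 (2.78-fold), Csk (2.78-fold) and Cd4 (2.75-fold) followed. The Nfatc1 value rests on the probe set used. Its 4 other sets were all lower in exFoxp3Th17 than in Treg, and none differed by 2-fold between Th17 and Th0. The next brightest Cd247 set gave log2 ratios of -0.96 (Th17 against Th0) and -0.12 (exFoxp3Th17 against Treg), less than 2-fold apart. A dimmer Cd247 set, at -0.27 and 0.78, was more than 2-fold apart, and the last was above the floor on 1 array only. The other Cd4 set gave -0.74 and 0.18, less than 2-fold apart. For Plcg1 no other set exceeded the floor on any array. Below 1 were Malt1 (2.40-fold), Cd2 (2.14-fold), Nfatc2 (1.21-fold) and Cbl (1.18-fold). Trat1, low in both Th17-cultured arrays, and Malt1, high in both, were the members called in the same direction in cells of both origins (Malt1 not with equal medians, while Txk joined them as lower in both with quantile normalization and with equal medians). With 1 array per population the difference between the 2 pairs of arrays was not tested. Origin cannot be told apart here from the other culture and its Foxp3 gate. Nor can it be told apart from the difference in Xist and Eif2s3y that sets exFoxp3Th17 off from every other array.

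**Figure D4:**
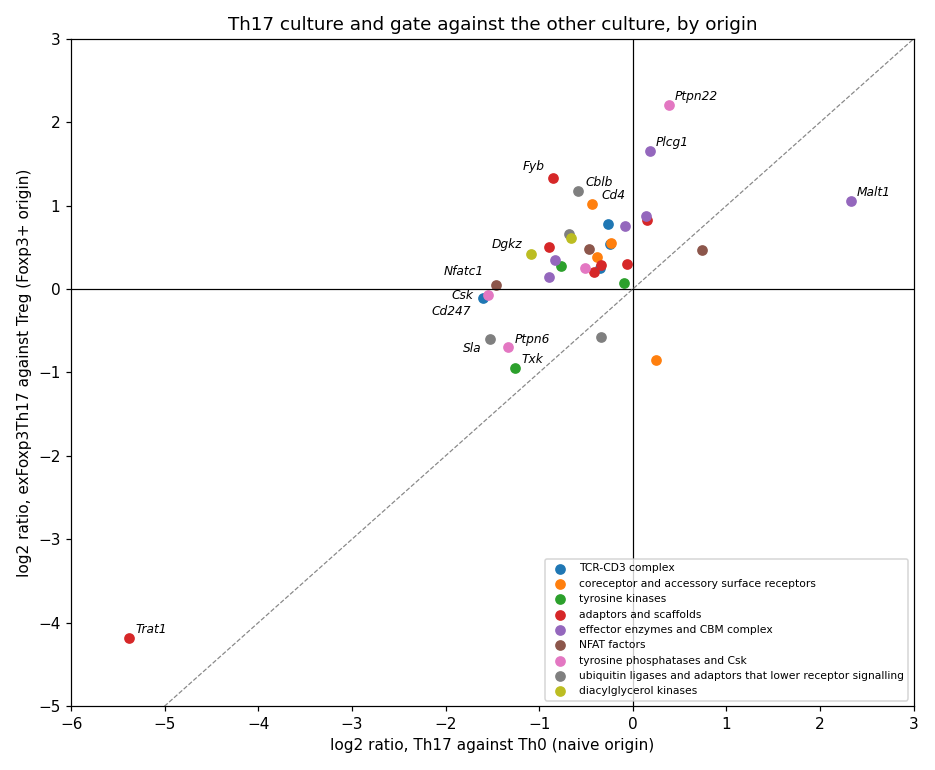
Each point is a member, placed by its log2 ratio of Th17 against Th0 (horizontal) and of exFoxp3Th17 against Treg (vertical); colours are roles and the dashed line marks equal ratios. Of the 37 points 33 lie above the dashed line, 23 of them at the upper left, with Trat1 at the lower left (-5.38 and -4.18) and Malt1 at the right (2.33 and 1.06).

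Other genes of the pathway, from a list of 56 of which 43 were measured and 42 exceeded the floor on some array, had medians nearer to 0 in all 4 comparisons. In exFoxp3Th17 against Th17, 6 of 42 were higher and none lower (median log2 ratio 0.23, against 0.03 over all genes above the floor on at least 1 array, of which 7.57% were higher and 7.29% lower). In Th17 against Th0, 5 were higher and 6 lower (median -0.15, against -0.02, with 8.27% and 6.88% of all genes). In exFoxp3Th17 against Treg, 4 were higher and 2 lower (0.24, against 0.02, with 11.4% and 9.93%), and in Treg against Th0, 3 and 6 (-0.02, against -0.01, with 5.56% and 4.94%). Evl, an actin regulator that binds Fyb, was at 1978 in Th0 and 835.7 in Th17, with 2260 in exFoxp3Th17 and 237.4 in Treg, with 3 other probe sets in the same directions. Ppp3ca, the calcineurin catalytic subunit, was at 320.9, 38.9, 135.5 and 164.3 in the same order, 8.25-fold lower in Th17 than in Th0. The calcium channel gene Orai2 was at 182.9, 62.9, 148.7 and 36.4. Tespa1, needed for receptor signals in thymocytes, was highest in Th0 (258.3) and lower in Treg (104.7), Th17 (52.6) and exFoxp3Th17 (32.5). Sh2d1a (SAP) was lowest in Treg, at 418.0, and highest in exFoxp3Th17, at 1603. Gab2 was at 20.5 in Th0 and at 121.5, 76.4 and 82.6 in Th17, exFoxp3Th17 and Treg.

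A second list held 30 other negative regulators, 28 of them measured. For exFoxp3Th17 against Th17, 5 of them were called higher and 5 lower (median log2 ratio 0.11), against 7.57% and 7.29% of all genes above the floor on at least 1 array. For Th17 against Th0 the counts were also 5 and 5 (-0.09), against 8.27% and 6.88%. In exFoxp3Th17 against Treg 5 were higher and 6 lower (-0.04, against 11.4% and 9.93%), and in Treg against Th0 5 and 2 (-0.05, against 5.56% and 4.94%). Ubash3b, the homologue of Ubash3a, was also lowest in Th17, with 157.3 in Th0 and 48.8 in Th17, with 150.0 in exFoxp3Th17 and 208.4 in Treg. The ligase Nedd4 was at 15.3 in Th0 and 18.0 in exFoxp3Th17 against 140.2 in Th17 and 67.5 in Treg. Cish, which cytokines induce, was likewise at 420.5 and 353.2 against 1460 and 1366, and the phosphatase Ptprj at 11.8, below the floor, and 19.5 against 44.2 and 85.0. The inhibitory receptor Btla was lowest in Treg (311.5) and highest in Th0 (1278), and Lair1 lay below the floor in exFoxp3Th17 (2.3) and at 18.7 to 49.8 elsewhere.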

How the data were processed

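Total RNA, 1 µg per sample, was labelled with biotin and hybridised to Affymetrix arrays, per the labels. The authors deposited signal intensity values on a linear scale, and the submitters' processing notes name MAS5, with no version stated. After trimming 2% of probe sets at each end, the mean intensity was 100.001 on each array, so that scaling was kept. The number of arrays limits the precision.

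Of 45101 probe sets (64 controls), 34945 have 1 gene symbol in the platform annotation, 932 several and 9160 none; symbols were updated by gene identifier through the RefSeq table (34741 matched). Signals under the floor of 12.1 were raised to the floor, then log2 was taken. The call needed 2-fold or more and the higher array above the floor, and the script for it was tested on simulated data. The members, lists and comparisons were chosen with earlier results of these data known. The members, Foxp3, Il17a, Xist, Eif2s3y and, of each other list, up to 6 called genes with the widest range are named; Cd79a, Eomes, Cd8a and Cd8b1 were added after their values were seen. The motifs, the promoters shown and the ratio of ratios were also chosen after the data were seen. Promoters came from a RefSeq table, which lists 30 of the 37 members. Alternatives covered scaling (quantile, equal medians), the floor (0.5 and 2 times, or added as a pseudocount), the probe set (mean, highest single value) and the threshold (1.5-fold, 3-fold). Work was done in python 3.11.15 with pandas 2.3.3 and numpy 2.4.6.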

Additional observations from a re-analysis of the deposited data

Results flagged for a closer look

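For 5 members the ratios of Th17 against Th0 and of exFoxp3Th17 against Treg went in opposite directions and differed by 2-fold or more. At least 1 of them passed 2-fold. Each direction rests on 1 pair of arrays and the difference was not tested. The pairs differ in more than origin: Th0 was cultured under Th0 conditions and sorted as Foxp3-, Treg cultured with IL-2 and sorted as Foxp3+. exFoxp3Th17 also stood apart from the other arrays in Xist (3766) and Eif2s3y (4.7). Fyb differed by 2.19 in log2 units (-0.85 in naive-derived and 1.33 in Foxp3-derived cells) and Cblb by 1.77 (-0.59 and 1.18). Nfatc1 differed by 1.52 (-1.46 and 0.05), but the direction of the second value is not borne out: all 4 other probe sets were lower in exFoxp3Th17 than in Treg (-0.52, -0.87, -1.45 and -0.14), and the used set turned to -0.03 with equal medians. None of those 4 sets differed by 2-fold between Th17 and Th0 either. Dgkz differed by 1.51 (-1.09 and 0.42) and Cd4 by 1.46 (-0.43 and 1.02). Cd4 passed 2-fold only in the second ratio, for which its other probe set gave 0.18. That ratio fell under 2-fold with quantile normalization (0.89), equal medians (0.94), the pseudocount (0.87) and averaged probe sets (0.60).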

How the results depend on the processing

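No paired analysis was possible because each group has 1 array, and for the same reason no array could be left out. Of the 27 calls of a member in a comparison, 19 held under all 8 alternatives that keep 2-fold, 8 were lost under at least 1, and none reversed. Counts of called members under those alternatives stayed within 1.5 times, except that members lower in exFoxp3Th17 than in Treg became 2 with quantile normalization and 2 with equal medians. With the mean of probe sets some counts of the other lists changed more. In the pathway list, those higher went from 5 to 3 in Th17 against Th0 and from 3 to 1 in Treg against Th0, and those lower from 2 to 1 in exFoxp3Th17 against Treg and from 0 to 1 in exFoxp3Th17 against Th17. Among the other negative regulators, those higher in exFoxp3Th17 than in Treg went from 5 to 3. At 1.5-fold the counts of members higher and lower were 14 and 4 for exFoxp3Th17 against Th17, 2 and 16 for Th17 against Th0, 12 and 5 for exFoxp3Th17 against Treg, and 1 and 17 for Treg against Th0. At 3-fold they were 0 and 0 for exFoxp3Th17 against Th17, 1 and 2 for Th17 against Th0, 2 and 1 for exFoxp3Th17 against Treg, and 0 and 1 for Treg against Th0. Over all genes above the floor on at least 1 array, exFoxp3Th17 against Th17 gave 896 higher and 863 lower at 2-fold, 2154 and 1751 at 1.5-fold, and 311 and 347 at 3-fold. For Th17 against Th0 these were 979 and 815, 1823 and 2026, and 485 and 277. For exFoxp3Th17 against Treg they were 1344 and 1176, 2669 and 2161, and 564 and 540, and for Treg against Th0 658 and 585, 1421 and 1568, and 304 and 169. The counts differ by construction of the threshold. The median log2 ratio of the members kept its sign in every comparison. Members with a ratio of ratios above 1 numbered 33 or 34 under the 8 alternatives, and those past 2-fold 14 to 19. Choosing probe sets by mean log2 without the floor, added after seeing the data, changed no member's value. All 37 members exceeded the floor on all arrays, but low signals limit some calls: Trat1 in exFoxp3Th17 against Th17 was lost at 2 times the floor (0.99) and with the pseudocount (0.75), and Cd4 in exFoxp3Th17 against Treg with the pseudocount (0.87).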
